A study of Mus musculus with 8 samples.

Results

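Measured here were 10 genes whose products switch the small GTPases Ras and Rap on or off, followed through TFH and TFR cells and the naïve CD4 T and Treg cells they are compared with. They are the exchange factors Rasgrp1, Rasgrp2 and Sos1, the Ras GTPase-activating proteins Rasa1, Rasa2, Rasa3, Rasal3 and Nf1, and the Rap GTPase-activating proteins Sipa1 and Rap1gap2. The members were taken by gene name, which gave 10 of the 29924 gene names on the array and 13 of its 39429 probes, and each was represented by its brightest probe. All 10 were among the 15764 genes tested, and 9 of them were well above background on all 8 arrays by the flag of the scanner software. The exception was Sos1, which reached that level on 5 of 8 arrays.

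The cells came from pLN of B6.Cg-Foxp3<tm1Mal> mice of both sexes, aged 8 to 14 weeks by the labels (7 to 12 in the study's description of its mice), whose Foxp3 expressing cells carry EGFP. All mice were immunized s.c. with KLH and alum, and cells were taken at d12 or d25 p.i., with 1 array per cell type and day. Among B220- CD4+ cells, naïve cells were sorted as GFP- PD1- GL7-, TFH cells as GFP- PD1hi GL7+, Treg cells as GFP+ PD1- GL7-, and TFR cells as GFP+ PD1hi with or without GL7. Each array was made from 25 ng of RNA of a pool, of 8 to 15 mice by the labels, although the study's statistics section gives 7 to 8, so that no array shows a single animal. The 2 arrays of a cell type are therefore its 2 samples. The p-values rest on the spread left after the terms for cell type and day. For each gene this spread was pooled over the 4 cell types and moderated by that of all genes tested. In such bulk samples, fewer cells that express a gene and less RNA per cell cannot be told apart.

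Ras and Rap are active when bound to GTP. Exchange factors load them with GTP, and GTPase-activating proteins speed up its hydrolysis and so end the signal. In T cells, the antigen receptor activates phospholipase C gamma, whose products diacylglycerol and calcium reach Rasgrp1 and Rasgrp2, while Sos1 is brought to the membrane through the adaptor Grb2. Active Ras feeds the MAP kinase cascade, and active Rap1 raises the adhesiveness of integrins such as LFA-1.

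The defining markers of the sorted cells were where the labels place them, with an exception. Foxp3 was between 37266 and 49262 relative units (RU, the normalized signal) in Treg and TFR cells and at most 357.8 in the others, and Cxcr5 was between 35322 and 237465 in TFH and TFR cells and at most 4384 in the others. Ikzf2, in the list of Treg markers, was as high in TFH cells (10506 and 10814 RU) as in Treg cells (9925 and 11103). Rasgrp2 and Rasa3 are abundant in platelets, and 7 of 8 platelet genes were not well above background on any array, Pf4, Ppbp and Itga2b included. The exception, Clec1b, was between 55.5 and 89.4 RU. The 10 B cell markers summed to 19606 RU on the TFH array of d25 against 6605 to 10700 on the other 7 arrays. Pax5 was not well above background anywhere. The 10 myeloid cell markers summed to 19164 to 28583 RU in TFH and TFR cells and to 18984 to 32186 in the others. Most of each sum was Itgam, at 13020 to 28504 RU, so that the sums mainly follow this gene. Itgam and Csf1r were lower in TFH than in naïve and in TFR than in Treg cells at both days. Cd68, Lyz2 and Clec7a were higher in these comparisons at both days. Cd68 was 2333 to 5098 RU in TFH and TFR cells against 367.5 to 564.0. Lyz2 was 379.3 to 1258 RU against 205.3 to 448.8, and Clec7a 96.1 to 236.1 against 27.1 to 72.0. Tyrobp was lower in TFH than in naïve cells at d12 and higher in the other comparisons. The sums of the CD8 T cell and NK cell lists moved with the follicular types. The 2 CD8 T cell markers summed to 2110 to 3174 RU in TFH and TFR cells and to 4208 to 5118 in naïve and Treg cells. The 4 NK cell markers summed to 840.8 to 3249 RU in TFH and TFR cells and to 172.4 to 564.1 in the others. Klrb1c carried this rise, at 752.0 to 3077 RU against 35.0 to 161.9, whereas Klra8 and Klre1 were highest in naïve cells. Ncr1 was not well above background anywhere. The part of these cells in the results was not tested, and values without the TFH array of d25 are given below. All d12 arrays shared 1 slide, whereas at d25 naïve and TFH cells were on the second slide and Treg and TFR cells on the third. Day can therefore not be told apart from slide, and comparisons between Foxp3+ and Foxp3- cells crossed slides at d25.

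For 3 members there were 2 probes, which show how far a result depends on the probe. Both Rasgrp2 probes, given here in full in lower case, were designed on the transcript NM_011242 and lie on the plus strand, the brighter one at chr19:6402512-6402571 and the second one at chr19:6403507-6403563 (build NCBI37, as for all positions here).
Rasgrp2, brighter probe: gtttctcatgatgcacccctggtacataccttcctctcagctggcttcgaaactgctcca
Rasgrp2, second probe: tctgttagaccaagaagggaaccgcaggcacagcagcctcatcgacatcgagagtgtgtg
Of the 60-base probes of Rasgrp1 and Rasa3, the middle 30 bases are shown, since these are the other members whose 2 probes can be set against each other. The brighter Rasgrp1 probe was designed on NM_011246 and lies on the minus strand at chr2:117105803-117105862, and the second one was designed on another transcript, ENSMUST00000110898, at chr2:117123829-117123888. For Rasa3, the brighter probe (NM_009025) lies on the minus strand at chr8:13567278-13567337 and the second (ENSMUST00000117551) at chr8:13566950-13567009.
Rasgrp1, brighter probe: attgtctaaagatgtatactgtaaaagctt
Rasgrp1, second probe: ctgatcatcattagaccttcaggaaattgt
Rasa3, brighter probe: tgaacttctttttaacttggatttgtaact
Rasa3, second probe: tccaatgggttaaatgggagtcaggcccat

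Most of these regulators differed between TFH and naïve cells, and in different directions. In the limma fit over all genes, 8 of the 10 were called at an adjusted p below 0.05. Rasgrp1, Rasgrp2, Rasa3, Nf1 and Rap1gap2 fell, and Rasa1, Rasa2 and Sipa1 rose. Over all genes tested, 25.6% fell and 20.9% rose in this comparison. The median log2 difference was -0.37 over the members and -0.07 over all genes tested. Without the TFH array of d25, 7 members were called.

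Between TFR and Treg cells, 5 of the 10 members were called and all 5 fell, namely Rasgrp1, Rasgrp2, Rasa2, Rasa3 and Rasal3. Over all genes, 20.9% fell and 18.7% rose. The median log2 difference was -0.65 over the members and -0.08 over all genes tested. Fewer members were called without the TFR array of d12, the Treg array of d25 or the TFR array of d25. Fewer of all genes tested were called in these fits as well. Over the 18 alternative analyses, the log2 difference ran from -2.69 to -1.90 for Rasgrp2 and from -1.67 to -1.33 for Rasa3.

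**Figure D1:**
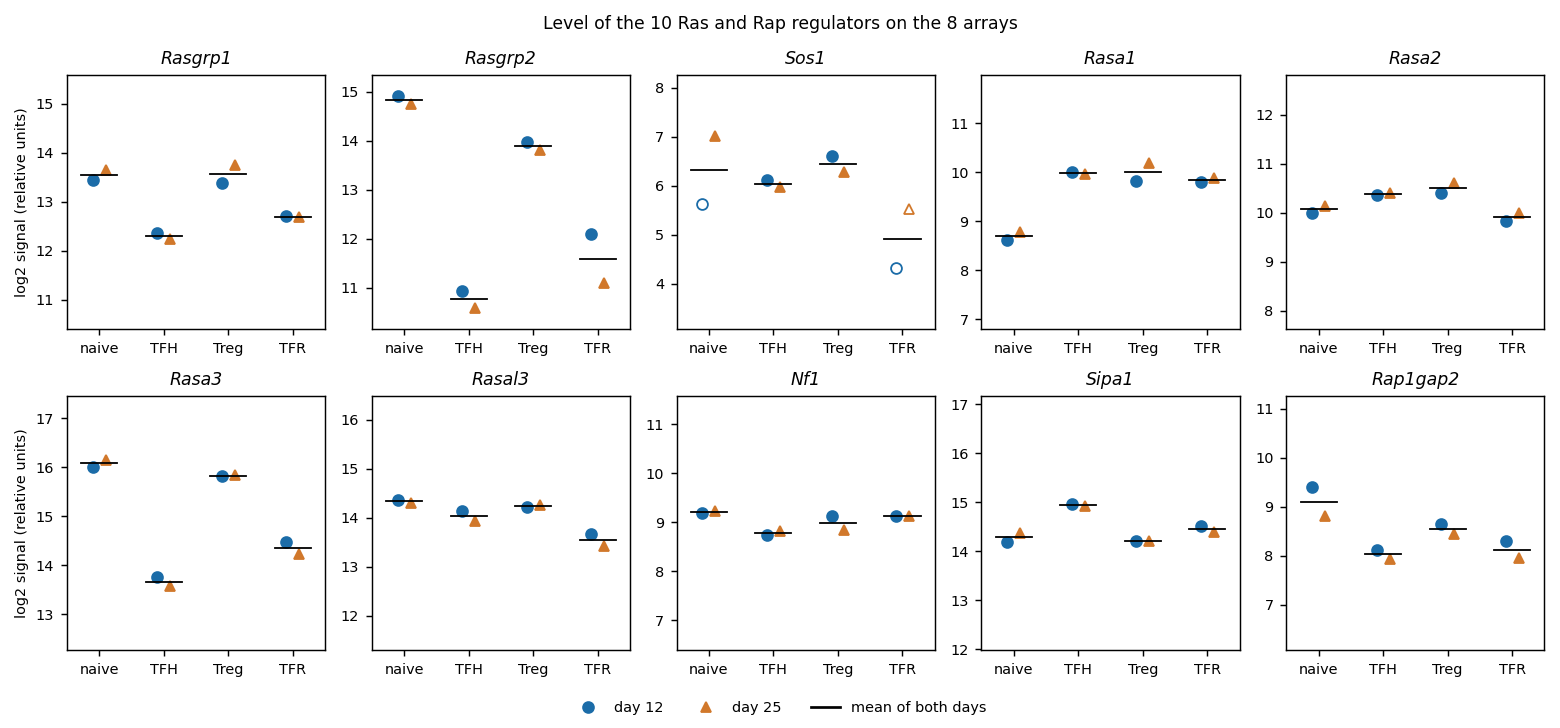
Log2 normalized signal of the 10 members on each of the 8 arrays, by cell type, with circles for d12, triangles for d25 and lines for the mean of both. Open symbols mark values not well above background, and each panel spans the same range of log2 units. Rasgrp2, Rasa3 and Rasgrp1 were lower in TFH and TFR cells than in naïve and Treg cells on all arrays, whereas Rasa1 was low in naïve cells alone.

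Rasgrp2, also called CalDAG-GEFI, is a calcium-responsive exchange factor of Rap1 and showed the widest range of the 10. Its level was 30668 RU at d12 and 27422 at d25 in naïve cells. In Treg cells it was 16008 and 14424. In TFR cells it was 4372 and 2179, and in TFH cells 1946 and 1543. The order of the 4 cell types was thus the same at both days, with no overlap, although the TFR value of d25 came close to the TFH value of d12. The log2 difference between TFH and naïve cells was -4.06 ± 0.24 (SE; adjusted p = 0.00042, n = 2 arrays per cell type), a 16.7-fold lower level. The difference between TFR and Treg cells was -2.30 ± 0.24 (adjusted p = 0.00317), a 4.92-fold lower level. The neighbours in that order were less clearly apart, since TFR minus TFH was 0.83 (adjusted p = 0.0673) and Treg minus naïve -0.93 (adjusted p = 0.0797).

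The second Rasgrp2 probe gave nearly the same values. It read 25909 and 23282 RU in naïve cells, 1784 and 1260 in TFH cells, 13409 and 12267 in Treg cells, and 3946 and 2013 in TFR cells. In the fit of all probes, its log2 difference was -4.03 between TFH and naïve cells (adjusted p = 0.000432) and -2.19 between TFR and Treg cells (adjusted p = 0.00356).

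Rasgrp1, the diacylglycerol-dependent exchange factor of Ras in T cells, was lower in both follicular cell types too, but by less. Naïve cells had 11182 and 12821 RU and Treg cells 10695 and 13762. The values were 5287 and 4837 in TFH cells and 6661 and 6593 in TFR cells. Both follicular types lay below both others on every array, and the TFR values above the TFH values. The log2 difference was -1.24 ± 0.14 between TFH and naïve cells (adjusted p = 0.00282), a 2.37-fold lower level. Between TFR and Treg cells it was -0.87 ± 0.14 (adjusted p = 0.0105). The latter call was lost without the TFR array of d12 (adjusted p = 0.0584), the Treg array of d25 (0.0595) or the TFR array of d25 (0.079), and with no filter on dim probes (0.0522).

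The probes of Rasgrp1 differed in how they placed the regulatory cells. On the second probe, naïve cells had 12398 and 13136 RU, Treg cells 9332 and 7096, TFH cells 3921 and 4708, and TFR cells 3671 and 3385. Here, both Treg values lay below both naïve values and both TFR values below both TFH values. The log2 difference between Treg and naïve cells was -0.65 on this probe (adjusted p = 0.0994) and 0.02 on the brighter one (adjusted p = 0.959 in the fit of genes). Between TFR and TFH cells it was -0.29 (adjusted p = 0.313) and 0.39 (adjusted p = 0.121), respectively. None of these 4 differences passed the test, and the difference between the probes itself was not tested. The falls from naïve to TFH cells (-1.57, adjusted p = 0.00266) and from Treg to TFR cells (-1.21, adjusted p = 0.00792) were called on the second probe as well.

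**Figure D2:**
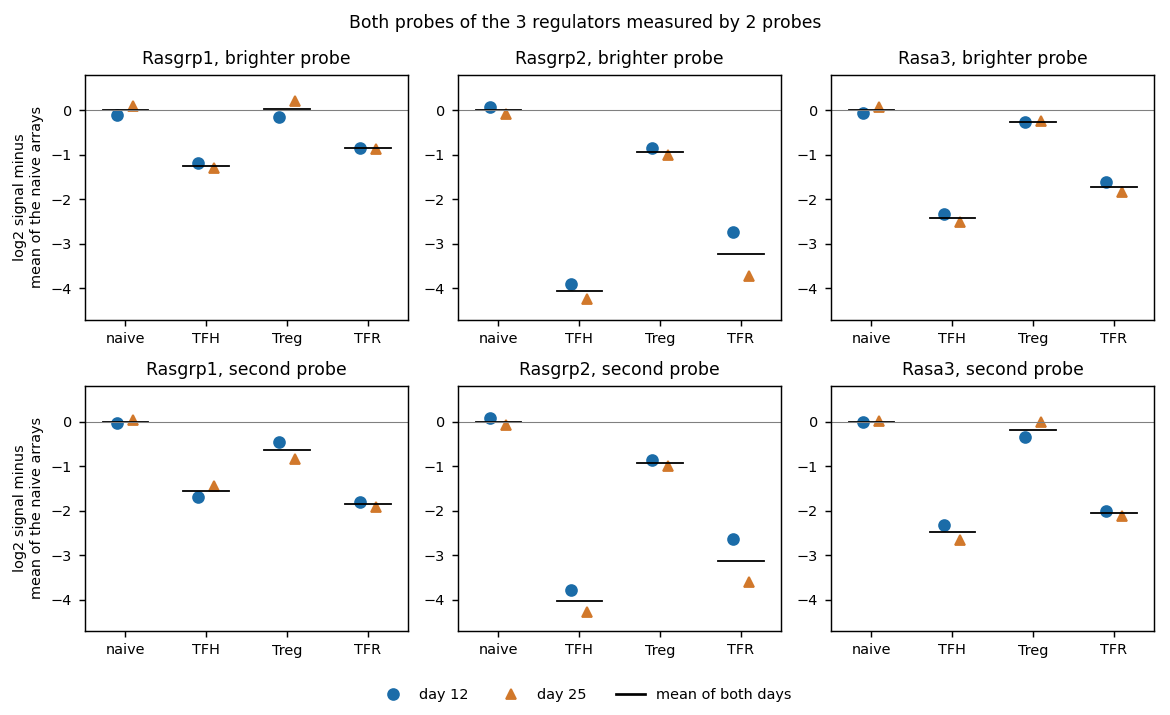
Log2 normalized signal of both probes of Rasgrp1, Rasgrp2 and Rasa3 on each array, each probe minus its own mean over the 2 naïve arrays (circles d12, triangles d25, lines the mean of both). The 2 probes of Rasgrp2 show the same pattern, whereas the second probe of Rasgrp1 puts Treg cells at -0.65 and the brighter one at 0.02 relative to naïve cells.

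Sos1, the exchange factor that works through Grb2, was near the lower limit of the array. It read 49.2 and 129.3 RU in naïve cells, 69.0 and 62.5 in TFH cells, 97.0 and 77.8 in Treg cells, and 20 (the floor set for all values) and 45.7 in TFR cells. The naïve array of d12 and both TFR arrays were not well above background. The mean signal of the Treg arrays was at least 1.77-fold that of the TFR arrays, counting an array below the limit at the lowest signal well above background there. This bound leaves out the spread between arrays. The 95% interval for TFR minus Treg cells ran from -2.81 to -0.23 on the log2 scale. No comparison of Sos1 was called, with an adjusted p of 0.0652 between TFR and Treg cells. The 95% interval for TFH minus naïve cells, from -1.57 to 1.01 on the log2 scale, was too wide to tell a rise from a fall.

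The 5 Ras GTPase-activating proteins went separate ways. Rasa3, which acts on Ras and Rap1 and is bound to the membrane through phosphoinositides, followed Rasgrp2. It measured 66176 and 73179 RU in naïve cells and 57680 and 58510 in Treg cells. In TFR cells it was 22788 and 19363, and in TFH cells 13821 and 12174. The cell types were in the same order as for Rasgrp2 and did not overlap. The log2 difference was -2.42 ± 0.12 between TFH and naïve cells (adjusted p = 0.000305), a 5.36-fold lower level, and -1.47 ± 0.12 between TFR and Treg cells (adjusted p = 0.00204), a 2.77-fold lower level. The second Rasa3 probe was far dimmer, from 135.8 to 857.6 RU, and gave -2.49 (adjusted p = 0.000701) and -1.88 (adjusted p = 0.00256).

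Rasa1, the p120 RasGAP that docks to tyrosine-phosphorylated proteins, had a pattern of its own. It was 390.1 and 441.7 RU in naïve cells, against 1026 and 998.2 in TFH cells, 906.3 and 1160 in Treg cells, and 889.9 and 944.2 in TFR cells. Naïve cells thus lay apart from the other 3 types, of which Treg cells overlapped with TFH and with TFR cells, while both TFR values lay below both TFH values. TFH cells exceeded naïve cells by 1.29 ± 0.12 on the log2 scale (adjusted p = 0.00149), and Treg cells did so by 1.30 (adjusted p = 0.00574). Without the naïve array of d12, the latter call was lost (adjusted p = 0.0547). TFR minus Treg was -0.16, with a 95% interval from -0.47 to 0.15 (adjusted p = 0.331).

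Rasa2, a relative of Rasa3, varied little. Its values were 1025 and 1130 RU in naïve cells, 1325 and 1348 in TFH cells, 1355 and 1571 in Treg cells, and 910.2 and 1017 in TFR cells. Both TFH and both Treg values were above all naïve and TFR values. TFR cells fell below Treg cells by 0.60 ± 0.09 on the log2 scale (adjusted p = 0.00784). This call was lost without the TFR array of d12 (adjusted p = 0.062), the Treg array of d25 (0.06) or the TFR array of d25 (0.0562). TFH minus naïve was 0.31 ± 0.09 (adjusted p = 0.04), and this small rise was lost in 11 of 18 alternative analyses, including 7 of the 8 that left out an array. The exception was the analysis without the TFH array of d25, and the adjusted p of the 7 was between 0.0718 and 0.162.

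Rasal3, a Ras GTPase-activating protein of blood cells, was lowest in TFR cells. There it was 12960 and 10944 RU, against 18034 and 15618 in TFH cells, 19033 and 19527 in Treg cells, and 21184 and 20244 in naïve cells. No TFR value overlapped with another cell type. The log2 difference between TFR and Treg cells was -0.69 ± 0.11 (adjusted p = 0.00844), and it was not called without the Treg array of d25 (adjusted p = 0.0574) or the TFR array of d25 (0.0649). TFH minus naïve was -0.30 (adjusted p = 0.0695).

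Nf1, the tumour suppressor neurofibromin, had the narrowest range, from 425.0 to 603.8 RU. The values were 584.1 and 603.8 in naïve cells, 425.0 and 451.3 in TFH cells, 559.3 and 457.1 in Treg cells, and 560.4 and 561.3 in TFR cells. Both TFH values lay below all others, the higher one by a narrow margin. Their log2 difference from naïve cells was -0.44 ± 0.12 (adjusted p = 0.0382). It was lost without any single naïve, TFH or TFR array, with an adjusted p between 0.0641 and 0.176, and with 75th percentile scaling (0.0559), no filter (0.103) or trended moderation (0.0589). TFR minus Treg was 0.15 (adjusted p = 0.375).

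The 2 Rap GTPase-activating proteins changed in opposite directions in TFH cells. Sipa1, a Rap1 inactivator of lymphocytes, was 31978 and 31016 RU in TFH cells against 18755 and 21323 in naïve cells. TFR cells had 23320 and 21602, and Treg cells 18943 and 19033. TFH cells were the highest, with no overlap. TFR cells lay above all naïve and Treg values, but at d25 only by a narrow margin over naïve cells (21602 against 21323). The rise in TFH over naïve cells was 0.66 ± 0.10 on the log2 scale (adjusted p = 0.00727), and TFR minus Treg was 0.24 (adjusted p = 0.127).

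Rap1gap2, another inactivator of Rap1, was 676.9 and 448.8 RU in naïve cells and 280.1 and 245.7 in TFH cells. In Treg cells it was 401.8 and 348.4, and in TFR cells 316.0 and 248.1. It fell in TFH below naïve cells by 1.07 ± 0.13 on the log2 scale (adjusted p = 0.00317). The values of TFH and TFR cells overlapped, and those of naïve and Treg cells did not. TFR minus Treg was -0.42 (adjusted p = 0.0566), and this difference passed the test in 4 of 18 alternative analyses.

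**Figure D3:**
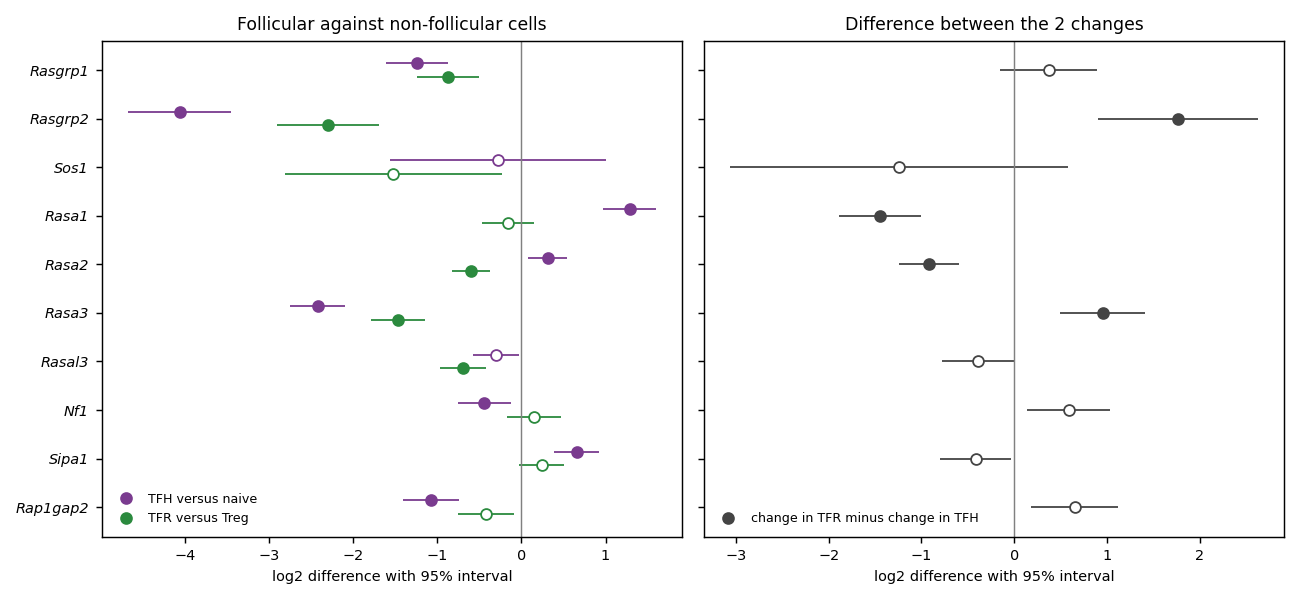
Log2 differences of the 10 members with 95% intervals from the limma fit, for TFH versus naïve and TFR versus Treg cells (left) and for the second change minus the first (right). Filled points have an adjusted p below 0.05. In the right panel Rasgrp2 and Rasa3 lie above 0 and Rasa1 and Rasa2 below 0, while the interval of Sos1 spans 0 widely.

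Whether the follicular change differed between Foxp3+ and Foxp3- cells was tested on its own, by subtracting the naïve-to-TFH change from the Treg-to-TFR change. This test passed for 4 members. The fall was smaller in the Foxp3+ cells for Rasgrp2, by 1.77 ± 0.33 on the log2 scale (adjusted p = 0.0439), and for Rasa3, by 0.96 ± 0.18 (adjusted p = 0.0417). The difference was -1.45 ± 0.17 for Rasa1 (adjusted p = 0.0146) and -0.91 ± 0.13 for Rasa2 (adjusted p = 0.0207), which were called higher in TFH than in naïve cells and had negative estimates between TFR and Treg cells. In all genes tested, 4.03% were called with a positive and 4.46% with a negative difference.

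These 4 calls were close to the threshold. In each fit below that left out an array or took slide as a term, fewer of all genes tested were called as well. None was made without the naïve array of d12, the naïve array of d25, the TFR array of d12 or the Treg array of d25, 1 without the Treg array of d12 (Rasa1) or the TFR array of d25 (Rasgrp2), and 2 without either TFH array (Rasa1 and Rasa2). With slide as a term in place of day, 1 was called, again Rasa1 (adjusted p = 0.0403). On the second probes, the difference was 1.85 for Rasgrp2 (adjusted p = 0.0413) and 0.61 for Rasa3 (adjusted p = 0.22). For the other 6 members the adjusted p was between 0.108 and 0.345, and the 95% interval of Rasgrp1 ran from -0.16 to 0.90.

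Between TFR and TFH cells, 4 members were called. Rasa3 was higher in TFR cells, by 0.70 ± 0.12 on the log2 scale (adjusted p = 0.0212). Lower in TFR cells were Rasa2 (-0.47, adjusted p = 0.0236), Rasal3 (-0.49, adjusted p = 0.0335) and Sipa1 (-0.49, adjusted p = 0.0336). Among all genes, 11.6% were higher and 10.5% lower. In each of the alternative fits that follow, fewer of all genes tested were called as well. With slide as a term in place of day, none of the 4 was called, with an adjusted p between 0.0788 and 0.148, and the same held without the TFH, Treg or TFR array of d12 or the Treg array of d25. The count was 2 without either naïve array and 1 without the TFH array of d25. Without the TFR array of d25 it was 1 too, but this was Rasgrp2, higher in TFR cells (adjusted p = 0.0295). On the second Rasa3 probe the difference was 0.42 (adjusted p = 0.154).

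Between Treg and naïve cells, Rasa1 and Rasa2 were called, both higher in Treg cells, whereas 5.89% of all genes were higher and 3.98% lower. The Rasa2 difference was 0.44 on the log2 scale (adjusted p = 0.0475) and was lost in 12 of 18 alternative analyses. Neither was called without the naïve array of d12, and 1 was called without the naïve array of d25 or either Treg array. Over all genes tested, the fits without one of these arrays gave fewer calls as well. Rasgrp1 and Sipa1 differed by 0.02 and -0.07, with 95% intervals from -0.35 to 0.39 and from -0.34 to 0.19, respectively.

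No member was called between d25 and d12 in the limma fit, against 0.019% of all genes higher and 0.0507% lower at d25. At an unadjusted p under 0.05 there was 1, Rap1gap2, which was lower at d25 (-0.33, unadjusted p = 0.0152 from limma, adjusted p = 0.111). The largest estimate among the members that were well above background everywhere was the -0.41 of Rasgrp2 (adjusted p = 0.185). It was 4372 RU at d12 and 2179 at d25 in TFR cells, which on the log2 scale was a wider gap than that between its naïve, TFH or Treg arrays.

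The members were set beside a list of 80 further gene names of the Ras and Rap pathway, of which 69 were tested. The alias Gads in that list is the gene Grap2 in the files. Between TFH and naïve cells, 46 were called, 28 higher and 18 lower, and between TFR and Treg cells 40 were called, 14 higher and 26 lower. These were 66.7% and 58% of the 69, against 46.5% and 39.6% of all genes tested. The count between TFR and Treg cells was between 17 and 19 without either Treg or either TFR array. Over all genes tested, fewer were called in those fits as well. The median log2 difference of the 69 was 0.12 between TFH and naïve cells and -0.24 between TFR and Treg cells, against -0.07 and -0.08 over all genes.

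Other exchange factors and GTPase-activating proteins showed larger rises than any member. Dab2ip, a Ras GTPase-activating protein, was 5785 and 7561 RU in TFH cells and 5501 and 5614 in TFR cells, but 339.5 and 378.1 in Treg cells. In naïve cells it was not well above background, so that its mean in TFH cells was at least 113-fold higher (adjusted p = 8.21e-05). Here and below, the adjusted p beside a bound belongs to the fitted difference and does not test the bound. The bound leaves out the spread between arrays. The rise of Dab2ip from Treg to TFR cells was 3.96 ± 0.15 on the log2 scale (adjusted p = 0.000429). Rap1gap, an inactivator of Rap1 like Rap1gap2, was 276.6 and 359.1 RU in TFH cells and 175.5 and 306.4 in TFR cells. It was not well above background in naïve or Treg cells, which puts TFH cells at least 5.40-fold above naïve cells (adjusted p = 0.00187) and TFR cells at least 4.37-fold above Treg cells (adjusted p = 0.00321).

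Rasgrp4, a further member of the Rasgrp family, rose in TFH over naïve cells by 3.26 ± 0.29 on the log2 scale (adjusted p = 0.00125). It went from 108.6 and 117.4 RU to 793.6 and 1474, whereas TFR minus Treg was -0.22 (adjusted p = 0.572). The difference between these changes was called (-3.48, adjusted p = 0.0141). Among exchange factors of Rap, Rapgef5 was at least 9.93-fold higher in TFH than in naïve cells (adjusted p = 0.000401), where it was not well above background, and rose in TFR over Treg cells by 2.41 (adjusted p = 0.00245). Rapgef6 fell in both follicular types, by 1.46 (adjusted p = 0.00262) and 1.26 (adjusted p = 0.0057).

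Dock4, also an exchange factor of Rap, was 266.5 and 550.8 RU in TFH cells and 43.2 and 59.1 in TFR cells. It was 62.9 and 103.3 in naïve cells and 121.1 and 183.0 in Treg cells. The naïve and the TFR array of d12 were not well above background, so that no fold is given against these types. The fit called it higher in TFH than in naïve cells (adjusted p = 0.00072) and lower in TFR cells than in Treg cells (adjusted p = 0.00317). Among the remaining GTPase-activating proteins, Rasal1 fell in both comparisons (-1.66 and -1.56, adjusted p = 0.00595 and 0.00934), Rasa4 fell in TFH cells (-1.20, adjusted p = 0.0081), and Sipa1l2 fell in TFR cells (-1.46, adjusted p = 0.0131).

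**Figure D4:**
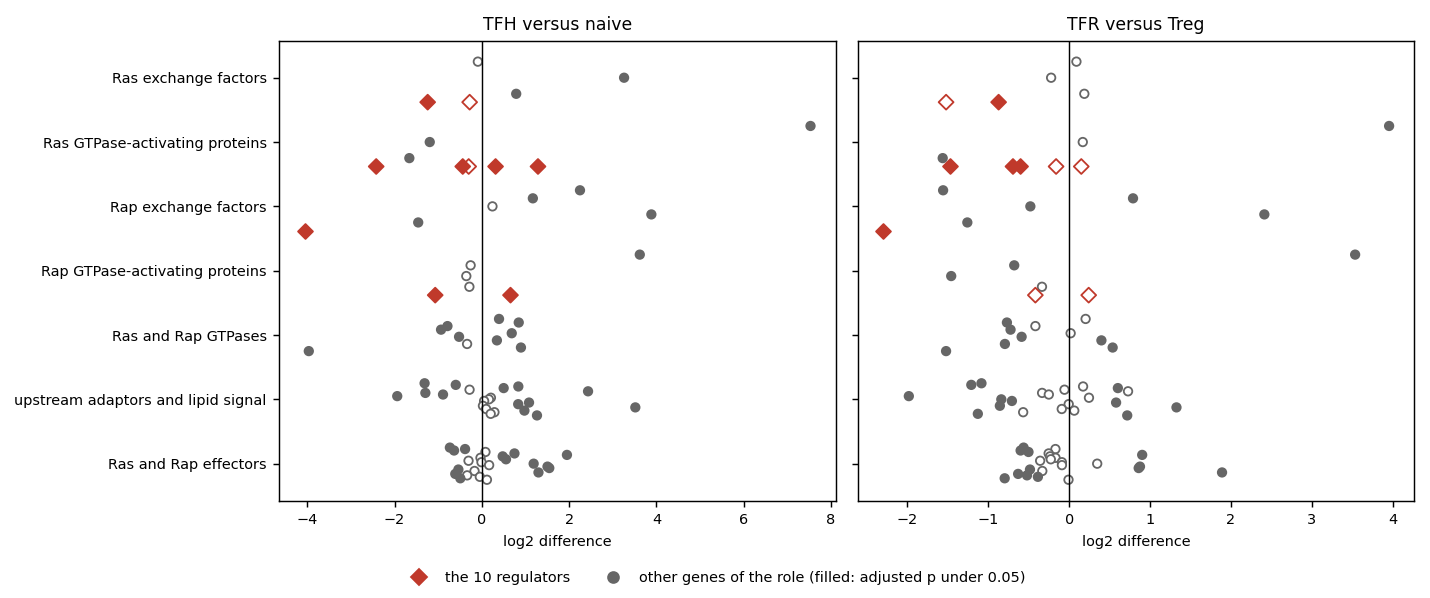
Log2 differences of the 10 members (red diamonds) and the 69 other tested genes of the Ras and Rap pathway (grey circles), by role, for TFH versus naïve and TFR versus Treg cells. Filled symbols have an adjusted p below 0.05. Positions of genes that were not well above background in 1 of the cell types compared are no measured folds, such as Dab2ip (7.53), Rapgef5, Rap1gap and Rgl1 in the left panel and Rap1gap, Rgl1, Dok3 and the member Sos1 in the right.

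Of 10 GTPases tested, 9 were called between TFH and naïve cells, 5 higher and 4 lower (all genes tested, 46.5%). Rras2, a Ras relative, stood out at 2262 and 2189 RU in naïve cells and 146.2 and 138.2 in TFH cells. It fell by 3.97 ± 0.09 on the log2 scale (adjusted p = 8.32e-05), and in TFR below Treg cells by 1.52 (adjusted p = 0.00097). The difference between these changes was called (2.45, adjusted p = 0.00344).

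Upstream, 13 of 21 adaptors and lipid signal genes were called between TFH and naïve cells, 8 higher and 5 lower, beside 46.5% of all genes. The phosphatase gene Ptpn11 (SHP2) rose from 10324 and 10978 RU in naïve cells to 103523 and 143486 in TFH cells, by 3.52 ± 0.13 on the log2 scale (adjusted p = 0.000176), and in TFR over Treg cells by 1.33 (adjusted p = 0.00268). Grap2, the adaptor Gads, fell in both comparisons, by 1.94 (adjusted p = 0.00284) and 1.98 (adjusted p = 0.00401). Dok3, an adaptor of inhibitory signals, rose over naïve cells in TFH cells by 2.43 (adjusted p = 0.00287).

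Downstream, 14 of 23 effector genes were called in TFH cells, 8 higher and 6 lower, and 12 in TFR cells, 4 higher and 8 lower, beside 46.5% and 39.6% of all genes. Itgal, the alpha chain of LFA-1, whose activity Rap1 controls, rose from 3495 and 3397 RU in naïve cells to 13452 and 13167 in TFH cells, by 1.95 ± 0.08 on the log2 scale (adjusted p = 0.000207). TFR cells had 8430 and 8706, which was above Treg cells by 0.90 (adjusted p = 0.00229). Ralgds, an effector of Ras that acts on Ral, rose by 1.54 in TFH cells (adjusted p = 0.00328) and by 0.86 in TFR cells (adjusted p = 0.023). Its relative Rgl1 was at most 132.2 RU, and its mean in TFR cells was at least 1.90-fold higher than in Treg cells, where it was not well above background (adjusted p = 0.00466).

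Over the 8 arrays, the levels of Rasgrp2 and Rasa3 ran together with a Pearson r of 0.99, and those of Rasgrp1 and Rasa3 with 0.98. Sipa1 ran against Rasa3 (-0.87). These values describe 4 cell types rather than 8 independent samples. For each member, the gene most like it was sought among all others tested. It was Nedd4l for Rasa3 (r = 0.999), Ggn for Rasgrp2 (0.997), Cd274 for Rasa1 (0.979), Tap2 for Rasa2 (0.964), Fam189b for Rasal3 (0.989), Zswim8 for Sipa1 (0.993) and Pak6 for Nf1 (0.946). The last of these rests on dim values, since Pak6 was well above background on the 2 TFR arrays only. No gene is given for Sos1, as 3 of its own 8 values were not well above background. For Rasgrp1 and Rap1gap2 it was a transcript without a symbol (0.996 and 0.994). Such likeness was common for some members, as 429 genes exceeded 0.95 with Rasa3 and 411 with Rasgrp2, and rare for others, with 15 for Rasa1 and 4 for Rasa2. Nedd4l, a ubiquitin ligase, was 1262 and 1449 RU in naïve cells and 148.2 and 114.6 in TFH cells. Cd274, which encodes PD-L1, was 1900 and 2094 RU in naïve cells and between 2778 and 3849 in the other 3 types.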

How the data were processed

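For 8 one-color Agilent arrays the authors deposited spot intensities from Agilent Feature Extraction 10.7.3.1 and a table of normalized intensities. Per the study's methods, the replicate spots were averaged per probe and quantile normalization was followed by scaling of the 75th percentile to 1500 and a floor of 20. Here, this was repeated on the spots. Spots with a software flag, outside the interquartile limits of their replicate spots or with a pixel coefficient of variation above 0.5 were excluded, which kept 86.4% to 89.2% of spots per array. A probe was well above background if over 50% of its retained spots carried that flag, which held for 18261 to 19867 probes per array. The number of arrays limits the precision. On each array the log2 values correlated with the authors' table with a Pearson r of 0.9994 across probes.

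Testing was limited to 15764 genes, those whose brightest probe had this flag on both arrays of some cell type. Differences were fitted with limma 3.58.1 in R 4.3.3 (lmFit, eBayes, terms for cell type and day, 3 residual and 1.89 prior degrees of freedom). The call was made at 0.05 after Benjamini-Hochberg adjustment over all genes tested. SE is that of the fit. In simulated data, 67 of 100 genes changed by 1 log2 unit and 93 of 100 changed by 2 were recovered between TFH and naïve cells among 15764. There were 11 false calls. Far fewer genes were changed there than the 7332 called in the data, so these shares need not carry over. Where a side was not well above background on either array, a lower bound was taken, with each of its arrays entering at its own level or at the lowest signal well above background there, whichever was higher. The methods' ANOVA with Tukey's test was not run, as it needs replicates per cell type and day. Genes of the pathway were named if called with a log2 difference of at least 1 between TFH and naïve or TFR and Treg cells, at most 3 per role, together with the gene most like each member. The members, lists and tests were chosen with earlier results of these data known. Of 10 members, 10 had a symbol in the RefSeq table of GRCm38.p6, which was used for names alone. The alternatives were 10 changes of a setting and the omission of each of the 8 arrays.

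The day numbers the arrays of a cell type. It marks separate sorts at d12 and d25, and is a term of the fit. The level of 1 marker gene is not reported here.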

Additional observations from a re-analysis of the deposited data

Results flagged for a closer look

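In the limma fit, the follicular change was called different between Foxp3+ and Foxp3- cells for 4 of the 10 members, by the test of the difference itself (the change from Treg to TFR minus the change from naïve to TFH cells). On the log2 scale the difference was 1.77 for Rasgrp2, 0.96 for Rasa3, -1.45 for Rasa1 and -0.91 for Rasa2. Over all genes tested, 4.03% had a called positive and 4.46% a called negative difference. The 4 calls were near the threshold, as 0 members were called without the naïve array of d12, the naïve array of d25, the TFR array of d12 or the Treg array of d25, and 1 with slide as a term in place of day. Fewer of all genes tested were called in these fits as well. No group had the 4 samples that a search for outlying samples needs.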

How the results depend on the processing

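Under the 18 alternatives, all calls of Rasgrp2 and Rasa3 between TFH and naïve and between TFR and Treg cells, and those of Rasgrp1, Rasa1, Sipa1 and Rap1gap2 between TFH and naïve cells, held. Leaving out 1 array, the number of members called was 2 to 6 between TFR and Treg cells, 0 to 2 for the difference between the follicular changes, 0 to 2 between TFR and TFH cells and 0 to 2 between Treg and naïve cells. For the other pathway genes between TFR and Treg cells it was 17 to 43. With no filter on dim probes, 1 member was called for the difference between the changes, 1 between TFR and TFH cells and 1 between Treg and naïve cells. With slide as a term, these counts were 1, 0 and 1. Without the replicate block (day left out), 2 were called between TFR and TFH cells and 1 between Treg and naïve cells, while the counts of members for TFH versus naïve and TFR versus Treg cells were 7 and 5. Treg versus naïve gave 1 with 75th percentile scaling and 1 with no spot exclusion. The causes were not tested. Over all genes, the number called ranged from 4309 to 7834 between TFH and naïve cells (7332 as reported), 2494 to 6851 between TFR and Treg cells (6249), 292 to 1846 for the difference (1339), 942 to 4277 between TFR and TFH cells (3486), 416 to 2128 between Treg and naïve cells (1557) and 0 to 1250 between the days (11). 

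Directions that changed all belonged to small, uncalled differences. Rasgrp1 between Treg and naïve cells was -0.051 with 75th percentile scaling, -0.32 with the mean of its probes, -0.051 with slide as a term, and -0.15 to 0.19 with 1 array left out. Sos1 in that comparison was -0.024 with normexp background correction and -0.45 to 0.70 with 1 array left out, and between TFH and naïve cells -0.86 to 0.29. Sipa1 between the days was -0.083 with 75th percentile scaling and -0.049 to 0.049 with 1 array left out, and between Treg and naïve cells -0.19 to 0.042. The latter range was -0.21 to 0.0014 for Rasal3. Nf1 ranged from -0.019 to 0.32 between TFR and Treg cells and from -0.080 to 0.046 between the days, and Rap1gap2 from -0.0029 to 0.19 between TFR and TFH cells.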
